A study of Rattus norvegicus with 7 samples.

Results

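Rat oral epithelial ROE2 cells were exposed to sodium fluoride (NaF), and the nuclear-encoded subunits of the respiratory chain and the ATP synthase were examined in the 7 arrays of the series. The genes were taken by symbol, as all probe sets of the Affymetrix Rat Genome array that carried a single gene symbol beginning with Nduf and a subunit letter and number, Sdha to Sdhd, Uqcr, Cox4 to Cox8 or Atp5. They comprised 88 probe sets for 79 genes, out of 31099 probe sets, of which 20832 carried a single symbol. ROE2 is a line from the tongue epithelium of fetal transgenic rats and carries a temperature-sensitive SV40 large T-antigen, so that all 7 arrays came from cells of the same immortalized line. There were 4 vehicle arrays (sterile water), labelled control, 3 h, 6 h and 12 h, and 3 arrays of cells treated with 2 mM NaF for 3, 6 and 12 h. Each array held RNA pooled from 3 independent experiments, so every condition had 1 array and a difference between the NaF and vehicle arrays of the same time had no replicate.

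Oxidative phosphorylation is carried out by 5 complexes of the inner mitochondrial membrane. Complex I (NADH dehydrogenase) and complex II (succinate dehydrogenase) pass electrons to ubiquinone, complex III passes them to cytochrome c, and complex IV (cytochrome c oxidase) passes them to oxygen, while the ATP synthase, complex V, uses the proton gradient to make ATP. Most subunits are encoded in the nucleus, the rest in mitochondrial DNA, and the subunits of a complex are needed in fixed proportions.

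At 12 h of NaF, 29 of the 70 genes that could be tested (41.4%) were lower and 7 (10%) were higher than in the vehicle arrays. Of all probe sets tested, 31.7% were lower and 28.9% higher. The lower genes were spread over complexes I, III, IV and V, and none of the 4 complex II genes was called in either direction. The largest decreases were in Ndufc2, Uqcrh, Uqcr11, Ndufb1, Atp5mpl, Atp5f1e and Ndufa4, which were 1.59- to 2.06-fold lower than in the vehicle array of 12 h. At 6 h, 10 genes (14.3%, beside 16.7% of all probe sets) were higher and 6 (8.57%, beside 22.2%) lower. This order did not hold in every setting (1 and 2 with no filter on dim probe sets, 4 and 4 without the vehicle array of 6 h). At 3 h Ndufb10 alone was called, and it was lower (1.43%, beside 6.29%).

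These calls came from a limma fit in which the 4 vehicle arrays gave the spread and each NaF array was set against their mean. A gene was called at a Benjamini-Hochberg adjusted p under 0.05 over all 10707 probe sets whose mean log2 signal over the 7 arrays was at least 7. Since NaF had 1 array a time, its variance was taken to be that of the vehicle arrays. The p-values describe the scatter of pooled vehicle RNA labelled control, 3 h, 6 h and 12 h, not that of repeated NaF cultures. Of the members, 70 genes (73 probe sets) passed this filter and each stands with its brightest probe set, while 9 genes were dimmer and were not tested.

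Counts were read against those over all 10707 probe sets. At 12 h, 41.4% of the 70 genes were called lower, beside 31.7% of all probe sets, and 10% were called higher, beside 28.9%. At 6 h, 14.3% of the genes were higher, beside 16.7%, and 8.57% were lower, beside 22.2%. At 3 h no gene was called higher, beside 2.76% of all probe sets, and 1 gene was lower, beside 6.29%. Without the limma adjustment, 1 gene had p under 0.05 in the higher direction at 3 h. The 12 h array thus differed from the vehicle arrays over much of the transcriptome, and the shares at 3 and 6 h were below those of all probe sets.

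By size alone, 7 genes were at least 1.5-fold lower than the vehicle array of the same time at 12 h and none was 1.5-fold higher, beside 14.5% and 13.6% of all probe sets. No gene reached 1.5-fold at 3 h (1.27% of all probe sets were higher and 3.4% lower) or at 6 h (5.27% higher and 9.48% lower). None reached 2.5-fold at any time. The median difference between NaF and vehicle of the same time over the 70 genes was -0.02 (log2) at 3 h, 0.07 at 6 h and -0.15 at 12 h, where that of all probe sets past the filter was -0.03, 0 and -0.0038. Members were bright. The median at 12 h was -0.01 for all probe sets with a mean signal between 10 and 11. It was -0.07 for those between 11 and 12, and -0.04 for those at 12 or above.

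**Figure D1:**
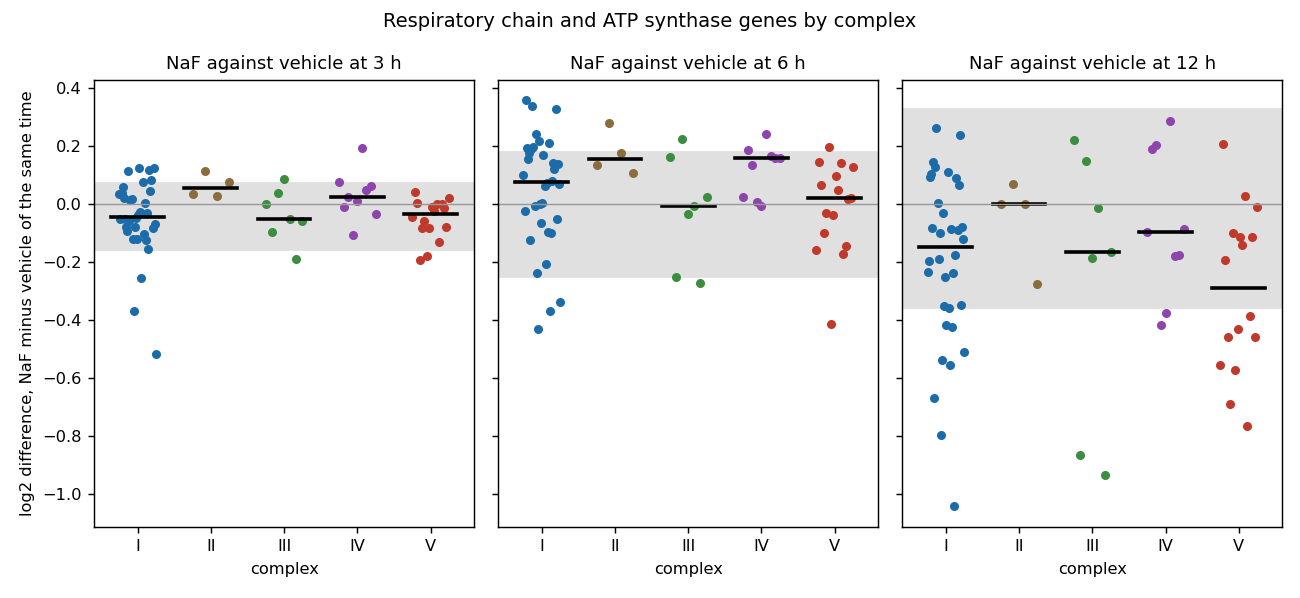
Log2 signal under NaF minus that under vehicle, both of equal duration, for each of the 70 genes, by complex, at 3, 6 and 12 h. Points are genes, black bars are the medians of a complex, and the grey band spans the middle 50% of all probe sets past the filter; at 12 h the median of complex V lay at -0.29 and that of complex II at 0.

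The 3 NaF arrays were also compared with each other, without subtracting the vehicle array of each time. The direct comparison of NaF 12 h with NaF 3 h called 22 genes lower and 1 higher (Ndufs3), where 24.5% and 24.6% of all probe sets were called. Against NaF 6 h, 26 genes were lower at 12 h, beside 20% of all probe sets, and none was higher, beside 21.5%; no gene was higher at an unadjusted p under 0.05 either. This second comparison was added after the values had been seen, and both come from the same limma fit. With all 3 NaF arrays against all 4 vehicle arrays, Ndufb10 and Ndufv3 were lower (4.49% of all probe sets) and no gene was higher (4.01%), although 3 had an unadjusted p under 0.05. In that fit a change over NaF time counts as spread, and neither decrease was called without the NaF 6 h array or without any 1 vehicle array.

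Over time, 25 genes (35.7%) stood above vehicle at 6 h and below it at 12 h, a course shared by 14.9% of all probe sets. None took the opposite course, beside 14.9%. The 6 h array of NaF was the highest of the 7 arrays for 34 genes (48.6%, beside 18.6%), and the 12 h array was the lowest for 42 (60%, beside 33.2%). Most of these steps at 6 h were small, and the calls at 6 h depended on the setting. The count of genes called higher at 6 h fell from 10 to 1 with no filter on dim probe sets. It fell to 4 without the vehicle array of 6 h. Ndufc1, a small membrane-arm subunit of complex I, was the single gene called in opposite directions, at 10.48, 10.53, 10.50 and 10.52 in the vehicle arrays and 10.53, 10.71 and 10.29 at 3, 6 and 12 h of NaF. Its 6 h value was above, and its 12 h value below, all 4 vehicle arrays (limma difference 0.20, adjusted p = 0.0401, and -0.22, adjusted p = 0.0175). All 6 genes called lower at 6 h were also lower at 12 h, and 3 of the 10 higher genes were higher at both times. Calls of both times use the same 4 vehicle arrays, and their overlap over all probe sets was not counted.

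The 34 complex I genes held the largest decrease. Ndufc2 encodes a membrane-arm subunit. Its log2 signal was 10.83, 10.78, 10.80 and 10.74 in the control, 3, 6 and 12 h vehicle arrays, and 10.66, 10.43 and 9.69 at 3, 6 and 12 h of NaF. All 3 NaF arrays lay below all vehicle arrays and the distance grew with time, to 2.06-fold against vehicle of 12 h (limma difference from the vehicle mean -1.09 ± 0.06 (SE), adjusted p = 0.000187). Ndufb1, another small membrane-arm subunit, had 9.85 to 9.98 in the vehicle arrays and 9.81, 9.70 and 9.18 under NaF. It was lower at 6 h (-0.22, adjusted p = 0.0482) and at 12 h (-0.74 ± 0.07, adjusted p = 0.000505).

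Ndufb7, Ndufb10 and Ndufv3 were lower by less than 1.5-fold. Ndufb7, at the membrane arm, read 11.14, 11.17, 11.06 and 11.12 in the vehicle arrays and 10.91, 10.86 and 10.56 under NaF. Ndufb10, also of the membrane arm, read 10.94, 10.93, 11.09 and 11.02 and then 10.56, 10.65 and 10.49. Its 3 NaF values were at one low level already from 3 h (adjusted p = 0.0306 at 3 h, 0.0209 at 6 h and 0.003 at 12 h), but the 3 h call was lost when the vehicle array of 3, 6 or 12 h was left out. Ndufv3, an accessory subunit of the NADH-binding module, had 8.97 to 9.26 in the vehicle arrays and 8.74, 8.85 and 8.73 under NaF, and its 12 h call (adjusted p = 0.0234) was lost without the vehicle array of 3, 6 or 12 h. A dimmer probe set of Ndufv3, under the filter, went the other way at 12 h, at 6.17 to 6.44 in the vehicle arrays and 6.24, 6.29 and 6.71 under NaF.

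The other complex I genes went both ways. Ndufa6, of the arm that extends into the matrix, read 10.997, 11.09, 11.08 and 11.16 in the vehicle arrays and 11.20, 11.42 and 11.42 under NaF, above every vehicle array at each time and called at 6 h (0.33, adjusted p = 0.0191) and 12 h (0.34 ± 0.08, adjusted p = 0.0111). Ndufs7, which carries an iron-sulfur cluster close to the ubiquinone site, read 10.36 to 10.45 and then 10.47, 10.77 and 10.68 (0.27 ± 0.06 at 12 h, adjusted p = 0.012). Grouped by position after the values had been seen, 11 of the 18 membrane-arm genes (61.1%) were called lower at 12 h and none higher, while of the 15 genes of the peripheral arm 2 (13.3%) were lower (Ndufs8 and Ndufv3) and 2 (13.3%) higher (Ndufs7 and Ndufa6), where 31.7% and 28.9% of all probe sets were lower and higher. The medians against vehicle of 12 h were -0.24 and -0.08. The difference between the arms was not tested.

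Ndufa4 bears a complex I name but is known as a subunit associated with cytochrome c oxidase, and was in neither arm. It read 11.90, 11.90, 12.02 and 12.01 in the vehicle arrays, 11.83 and 11.89 at 3 and 6 h of NaF, and 11.34 at 12 h. Of the 3 NaF arrays, the 12 h array alone was called (-0.62 ± 0.08, adjusted p = 0.0011; adjusted p = 0.529 at 6 h). Its paralog Ndufa4l2, known as a hypoxia-induced gene, stayed between 4.04 and 4.10 in all 7 arrays, far under the limit of 7.

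**Figure D2:**
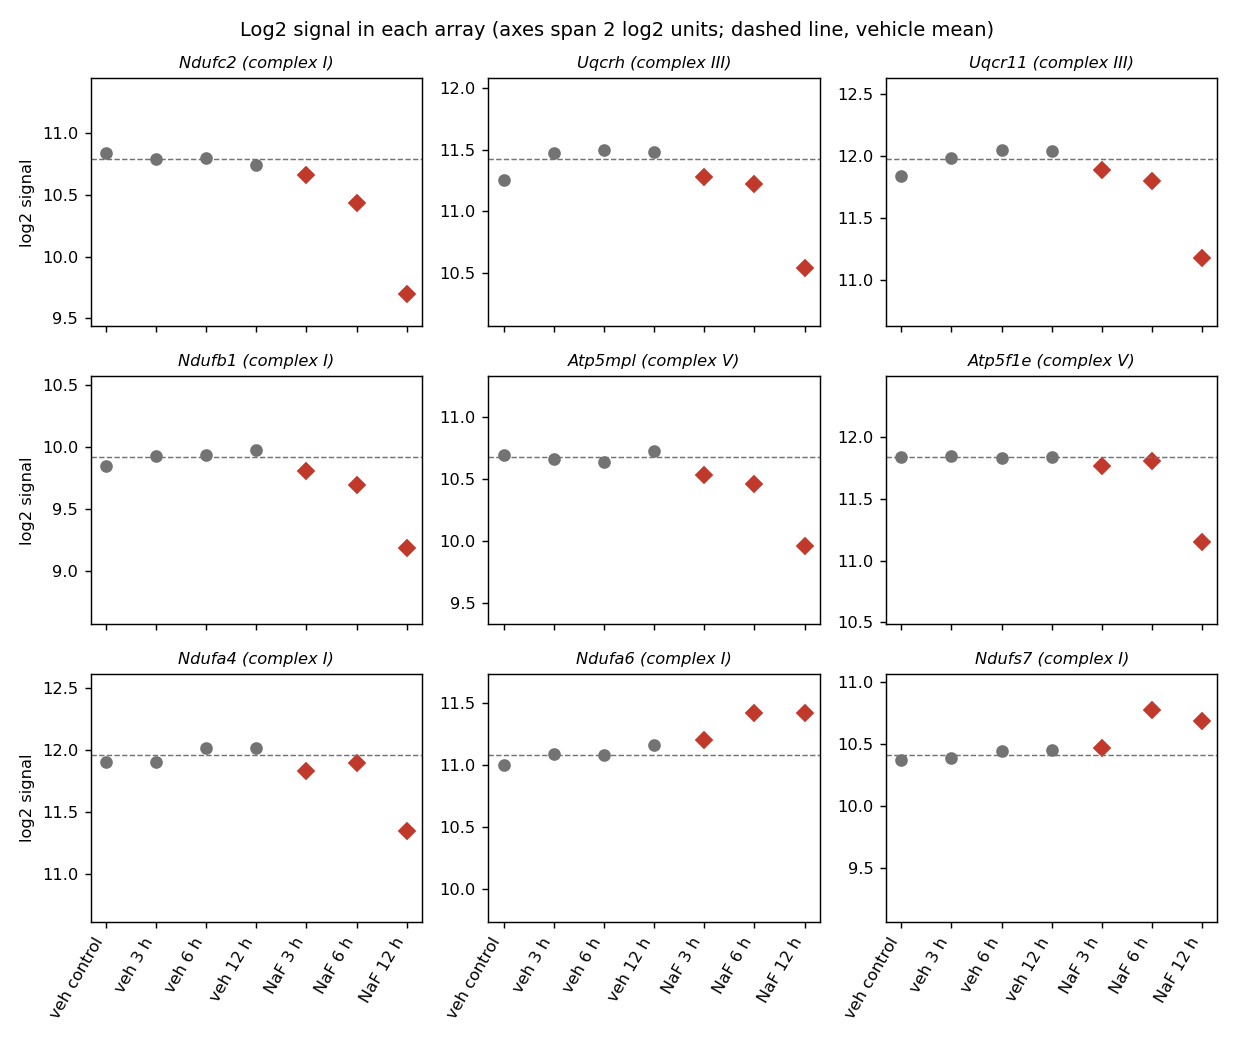
Log2 signal of 9 genes in each of the 7 arrays, grey circles for vehicle (veh) and red diamonds for NaF, with the vehicle mean dashed. The 7 genes at least 1.5-fold lower at 12 h fall mainly between 6 and 12 h, and Ndufa6 and Ndufs7 lie above their vehicle arrays at 6 and 12 h.

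Complex II is the one complex with all subunits encoded in the nucleus, and it also belongs to the citric acid cycle. At 6 h all 4 genes stood above vehicle of the same time, by a median of 0.16. Sdhb, the iron-sulfur subunit, read 10.30, 10.32, 10.35 and 10.37 in the vehicle arrays and 10.43, 10.63 and 10.43 under NaF, and was called higher at 6 h (0.29, adjusted p = 0.013). Sdhc, a membrane anchor, read 11.16, 11.15, 11.29 and 11.26 and then 11.18, 11.47 and 11.26 (0.25 at 6 h, adjusted p = 0.0497). At 12 h neither gene was called. In the direct comparison of NaF 12 h with NaF 6 h, Sdhb (-0.19) and Sdhc (-0.21) were not called lower, so the loss of their calls is no test of a fall. Sdha, the flavoprotein, had exactly the same value, 10.01, at 12 h of NaF as under vehicle at 6 h and at 12 h, and Sdhc also equalled its vehicle array of 12 h. Sdhd, the other anchor, was 10.66 at 12 h of NaF against 10.78 to 10.93 in the vehicle arrays (-0.22 ± 0.08), just short of the limit (adjusted p = 0.0509). It passed without the vehicle array of 3 h (adjusted p = 0.0165) and after quantile normalization (adjusted p = 0.0294). A second, dimmer probe set of Sdhd gave -0.20 (adjusted p = 0.247).

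Complex III was split between its subunits. Uqcrh, the hinge protein that contacts cytochrome c1, read 11.25, 11.47, 11.50 and 11.48 in the vehicle arrays and 11.28, 11.22 and 10.55 under NaF. At 12 h it was 1.91-fold below the vehicle array of the same time (-0.88 ± 0.11 from the vehicle mean, adjusted p = 0.0012), and its control array was lower than the other 3 vehicle arrays. Uqcr11, a small accessory protein, read 11.84, 11.98, 12.04 and 12.04 and then 11.88, 11.79 and 11.17 (-0.80 ± 0.09 at 12 h, adjusted p = 0.000981). Uqcr10 went the other way, at 12.32 to 12.36 in the vehicle arrays and 12.34, 12.48 and 12.55 under NaF (0.21 ± 0.06, adjusted p = 0.0199), a call lost without the vehicle array of 6 h. Of the core proteins, Uqcrc1 was higher at 6 h (0.22, adjusted p = 0.0255), while Uqcrc2 read 10.91 to 11.04 in the vehicle arrays and 10.73 at 12 h of NaF (-0.22, adjusted p = 0.0453). The Uqcrc2 call was lost without the vehicle array of 3, 6 or 12 h, and a second probe set, at 6.80 to 8.06 in the vehicle arrays, gave 0.43 ± 0.47. Uqcrfs1, the Rieske iron-sulfur protein, differed from vehicle of 12 h by -0.01.

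In complex IV, 3 of the 9 genes tested were lower at 12 h and 3 were higher. Both shares, 33.3%, were near those of all probe sets (31.7% lower and 28.9% higher). Cox6b1, which faces the intermembrane space, read 12.40, 12.40, 12.40 and 12.44 in the vehicle arrays and 12.29, 12.41 and 12.02 under NaF (-0.39 ± 0.06, adjusted p = 0.0022). Cox6c read 12.69 to 12.76 and then 12.70, 12.75 and 12.38 (-0.34 ± 0.06, adjusted p = 0.0052). Both were within the vehicle range at 6 h and below it at 12 h. Cox7c was the third (-0.17, adjusted p = 0.0382), and lost the call without the vehicle array of 6 or 12 h.

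Cox7a2l, known as a factor that joins complexes III and IV in supercomplexes, was higher. It read 11.03, 11.01, 11.07 and 11.01 in the vehicle arrays and 11.20, 11.31 and 11.29 under NaF, all 3 above every vehicle array (0.27 ± 0.06 at 12 h, adjusted p = 0.0105). Cox6a1 read 12.53 to 12.70 and then 12.65, 12.83 and 12.89 (0.25 ± 0.08, adjusted p = 0.0377). This call was lost without the vehicle array of 3, 6 or 12 h, and that of Cox5b (0.18, adjusted p = 0.0437) without the control array or that of 6 or 12 h. Cox4i1, the widely expressed isoform of subunit 4, was not called (-0.04, adjusted p = 0.684), and neither was Cox8a (-0.07, adjusted p = 0.396).

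The 9 genes that were not tested were dim in every array, and most are isoforms known from striated muscle or other special tissues. Cox6a2 lay between 4.07 and 4.69, Cox7a1 between 4.45 and 4.72, and Cox8b between 2.86 and 3.42. Cox4i2 stayed at 3.97 to 4.10, Cox6b2 at 2.99 to 3.37 and Cox7b2 at 2.49 to 2.57. Cox5a, a nuclear-encoded subunit of complex IV in all tissues, lay at 5.80 to 5.96 on its only probe set with a single symbol. Another probe set carries its symbol beside a further symbol and was not used. The pseudogene Cox6c-ps1 lay between 5.95 and 6.18. No NaF array brought any of these 8, or Ndufa4l2, near the limit of 7.

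Complex V had the lowest median at 12 h, at -0.29 against vehicle of the same time. Of its 16 genes, 9 (56.2%, beside 31.7% of all probe sets) were called lower and 1 (6.25%, beside 28.9%) higher. Atp5mpl, a small protein of the membrane part, read 10.69, 10.66, 10.63 and 10.73 in the vehicle arrays and 10.53, 10.46 and 9.96 under NaF (-0.72 ± 0.06 at 12 h, adjusted p = 0.000422). Atp5f1e, the epsilon subunit of the rotor, read 11.83, 11.84, 11.83 and 11.84 and then 11.76, 11.80 and 11.15. The vehicle arrays of this gene spanned 0.01 and its decrease came almost wholly between 6 and 12 h (-0.69 ± 0.05, adjusted p = 0.000323). Atp5mc3, which encodes one of the precursors of the c-ring, fell in steps instead, from 12.66 to 12.71 in the vehicle arrays to 12.51, 12.28 and 12.08 (-0.41, adjusted p = 0.0038, at 6 h and -0.60 ± 0.06, adjusted p = 0.000526, at 12 h).

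The 2 large subunits of the catalytic head moved apart. Atp5f1a, the alpha subunit, read 11.86, 11.84, 11.94 and 11.97 in the vehicle arrays and 11.79, 11.78 and 11.42 under NaF (-0.49 ± 0.07, adjusted p = 0.0025). Atp5f1b, the catalytic beta subunit, read 12.73, 12.72, 12.79 and 12.79 and then 12.76, 12.93 and 13.00 (0.24 ± 0.06, adjusted p = 0.0181). Within each array the difference Atp5f1a minus Atp5f1b was -0.89 to -0.82 in the vehicle arrays and -0.97, -1.15 and -1.58 at 3, 6 and 12 h of NaF. A constant shift of all log2 values of an array leaves this difference unchanged. A shift that varies with signal may change it, and this was not tested. The other F1 genes, Atp5f1c, Atp5f1d and Atp5f1e, were all lower at 12 h, although Atp5f1c (-0.24, adjusted p = 0.0381) lost its call without the vehicle array of 3, 6 or 12 h. In the peripheral stalk, Atp5pb and Atp5pf were lower by 0.37 and 0.44 (limma differences of -0.37 and -0.44), and Atp5po and Atp5pd were not called. Atp5if1, the inhibitor of ATP hydrolysis, gave -0.08 (adjusted p = 0.468).

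Similar pairs were present in complexes III and IV. Uqcr11 minus Uqcr10 lay between -0.52 and -0.27 in the vehicle arrays and was -0.45, -0.69 and -1.38 at 3, 6 and 12 h of NaF. Cox6b1 minus Cox6a1 was -0.30 to -0.13 in the vehicle arrays and -0.36, -0.42 and -0.87 under NaF. The pairs were chosen after the values had been seen and are given as a description.

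**Figure D3:**
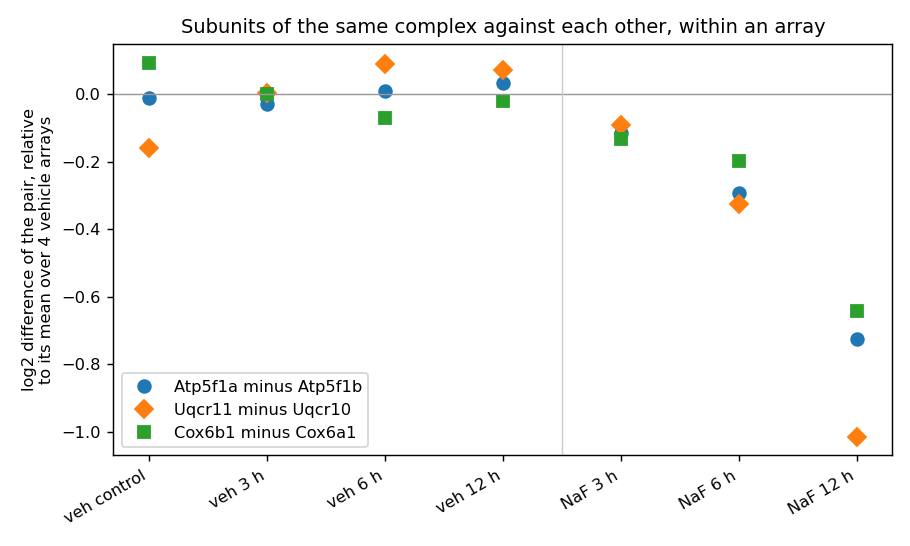
Difference in log2 signal between both subunits of a pair within each array, relative to its mean over the 4 vehicle arrays, for Atp5f1a minus Atp5f1b, Uqcr11 minus Uqcr10 and Cox6b1 minus Cox6a1. All 3 pairs lie lowest at 12 h of NaF, where Atp5f1a minus Atp5f1b was -1.58 before this centring.

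**Figure D4:**
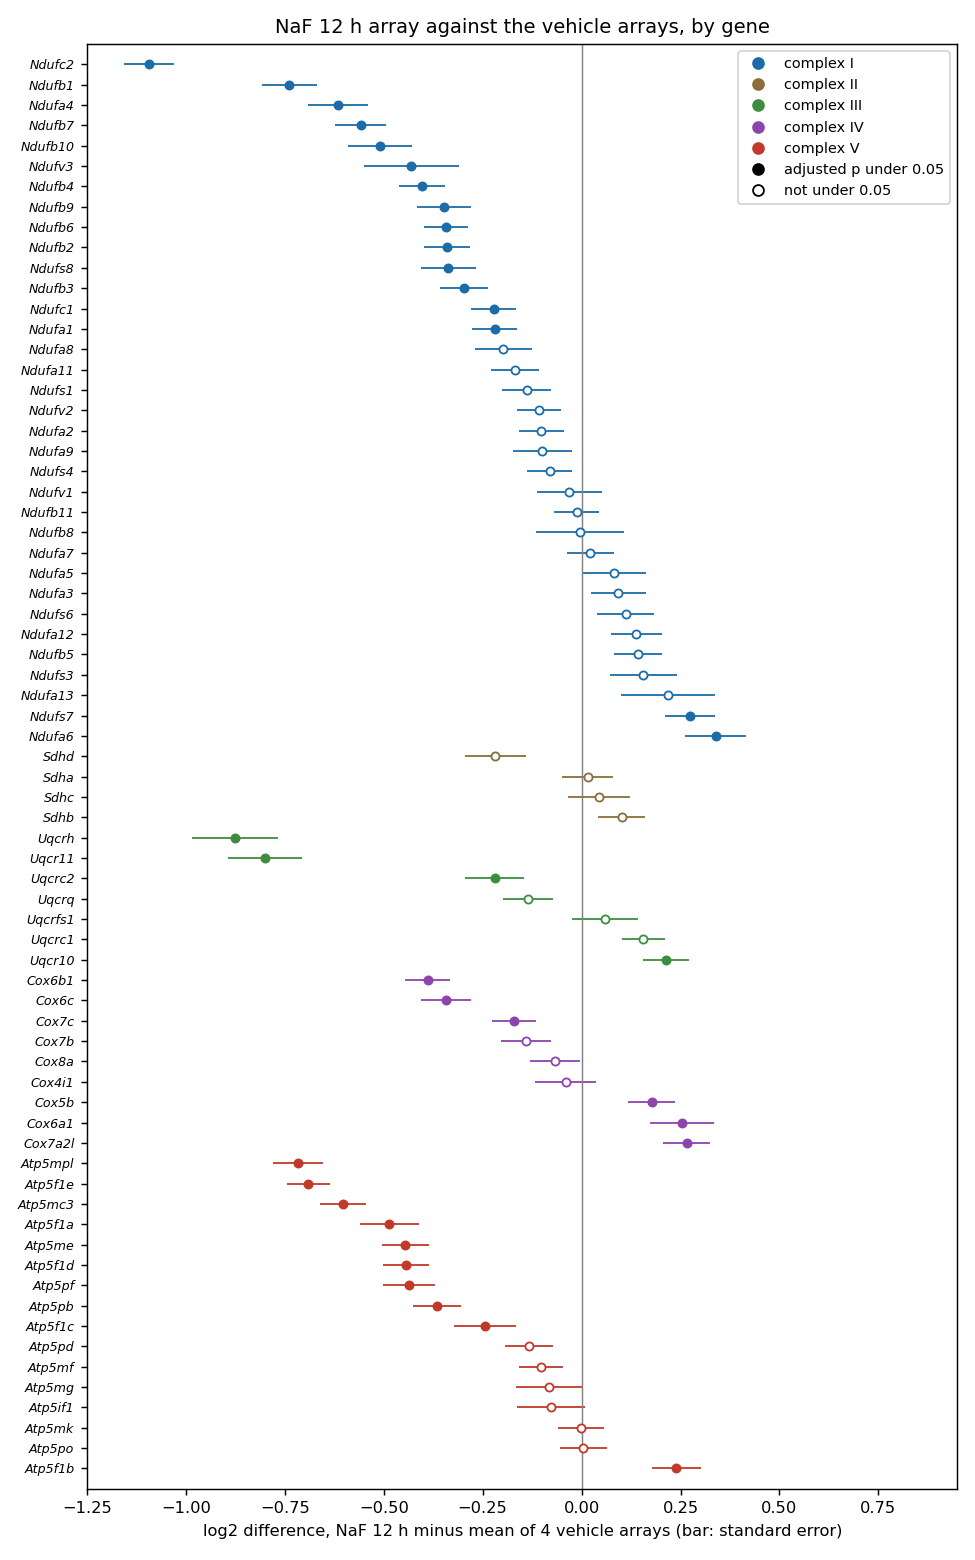
Log2 difference between the NaF 12 h array and the mean of the 4 vehicle arrays with its limma standard error for each of the 70 genes, ordered within complexes I to V. Filled circles had an adjusted p under 0.05 (29 lower, 7 higher) and open circles did not.

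The sequences before the start of genes that moved in opposite directions are shown because nuclear respiratory chain genes are known to be regulated in part by the factors NRF1 and GABP, the latter of the ETS family. Of the 70 genes, 64 had an entry in the set of RefSeq promoters on the rat assembly GRCr8 that was used here. Uqcr11 was among the genes without an entry and was not searched. For the 64 genes, the 250 bases before the start were searched on both strands for the letters GCGCANGC (NRF1), CCGGAAG (ETS), AAGATGGC (YY1) and TGATGCAA (a CEBP-ATF element). Shown are the 3 genes of largest decrease and the 2 of largest increase at 12 h among those with an NRF1 or ETS match, with every match in capitals, 5′ to 3′ on the strand of the gene. Uqcrh lies on the minus strand at chr5:134790883-134791132, Atp5mpl on the minus strand at chr6:136845641-136845890, Ndufb7 on the minus strand at chr19:41477292-41477541, Ndufa6 on the minus strand at chr7:115750318-115750567 and Cox7a2l on the plus strand at chr6:16936324-16936573.
Uqcrh: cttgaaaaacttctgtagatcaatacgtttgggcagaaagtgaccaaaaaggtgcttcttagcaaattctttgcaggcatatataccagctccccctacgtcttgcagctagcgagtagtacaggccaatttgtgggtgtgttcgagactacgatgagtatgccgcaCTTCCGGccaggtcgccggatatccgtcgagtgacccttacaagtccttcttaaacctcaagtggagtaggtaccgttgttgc
Atp5mpl: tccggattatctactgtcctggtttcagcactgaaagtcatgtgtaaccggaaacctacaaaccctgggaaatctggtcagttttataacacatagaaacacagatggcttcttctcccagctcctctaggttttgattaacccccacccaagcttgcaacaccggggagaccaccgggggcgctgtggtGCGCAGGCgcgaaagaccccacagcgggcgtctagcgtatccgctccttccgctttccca
Ndufb7: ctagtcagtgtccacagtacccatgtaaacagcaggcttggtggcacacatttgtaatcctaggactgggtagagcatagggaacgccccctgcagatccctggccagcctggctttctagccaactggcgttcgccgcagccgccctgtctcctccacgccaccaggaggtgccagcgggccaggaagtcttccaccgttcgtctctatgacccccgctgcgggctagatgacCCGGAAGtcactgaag
Ndufa6: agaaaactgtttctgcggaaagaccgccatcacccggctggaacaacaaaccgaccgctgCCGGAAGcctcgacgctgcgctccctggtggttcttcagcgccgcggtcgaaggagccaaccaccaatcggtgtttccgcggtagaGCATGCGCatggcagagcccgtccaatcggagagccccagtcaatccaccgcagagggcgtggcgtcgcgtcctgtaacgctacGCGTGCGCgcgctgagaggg
Cox7a2l: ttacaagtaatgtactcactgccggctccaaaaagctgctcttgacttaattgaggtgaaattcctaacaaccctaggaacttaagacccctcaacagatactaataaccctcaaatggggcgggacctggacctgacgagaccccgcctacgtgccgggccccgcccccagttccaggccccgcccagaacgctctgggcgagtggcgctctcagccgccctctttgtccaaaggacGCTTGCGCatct

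In these 5 windows, the lower genes Uqcrh and Ndufb7 held an ETS match and Atp5mpl an NRF1 match. Of the higher genes, Ndufa6 held an ETS match and 2 NRF1 matches and Cox7a2l an NRF1 match, so both motifs occurred in both directions, and no 2 matches overlapped. NRF1 letters were in 18 of the 64 windows (28.1%, beside 8.4% of 27457 genes) and ETS letters in 19 (29.7%, beside 7.74%). By call at 12 h, NRF1 letters were in 5 of 26 lower genes, 2 of 6 higher genes and 11 of 32 genes not called, and ETS letters in 8, 2 and 9. YY1 letters were in 2 windows (3.12%, beside 1.69%), those of Atp5me and Atp5pf, both lower at 12 h. The CEBP-ATF letters were in none, beside 0.656% of all genes. A match describes letters in a window and is no evidence of binding.

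Genes that serve the same complexes were read from lists by function. Of 32 assembly factors tested, 13 (40.6%) were higher and 7 (21.9%) lower at 12 h, beside 28.9% and 31.7% of all probe sets. Cox18, which inserts a cytochrome c oxidase subunit into the membrane, read 7.92 to 8.02 in the vehicle arrays and 8.34, 8.83 and 9.49 under NaF (1.54 ± 0.07, adjusted p = 0.000142). Surf1, another assembly factor of complex IV, read 7.45 to 7.64 and then 8.14, 8.57 and 8.85. Both were called higher at each time, whereas Ndufaf4, of complex I assembly, read 10.07 to 10.27, then 10.24 and 10.37, and 11.18 at 12 h. Among the lower assembly factors were Sdhaf4 (-0.71, adjusted p = 0.000338) and Pet100 (-0.58, adjusted p = 0.000634), which were named after their values had been seen.

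Of 9 coenzyme Q genes, 4 (44.4%) were higher and 1 (11.1%) lower at 12 h, against the same 28.9% and 31.7%. Coq10b, a binding protein of coenzyme Q, read 10.26 to 10.47 in the vehicle arrays and 11.07, 11.83 and 11.94 under NaF, while Coq9 and Coq5 were higher by 0.78 and 0.64 (limma). Cyc1, cytochrome c1, was not called (0.12, adjusted p = 0.212). COX1 and COX2, symbols that were read here as the mitochondrial DNA-encoded subunits although the RefSeq gene table used here held no entry for their gene IDs, gave -0.05 (adjusted p = 0.599) and 0.01 (adjusted p = 0.927). Their signals of 13.71 to 14.01 lay close to the brightest probe set of the array (14.03 at 12 h of NaF).

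Of 7 genes in a list of carriers, channels and the ATP synthase inhibitor Atp5if1, which is also counted in complex V, none was higher and 5 were lower at 12 h, beside 28.9% and 31.7% of all probe sets in the higher and lower directions. Slc25a4, an ADP/ATP carrier, read 10.00 to 10.14 in the vehicle arrays and 10.04, 9.76 and 8.94 under NaF (-1.13 ± 0.08, adjusted p = 0.000255). Its paralog Slc25a5 read 12.19 to 12.37 and then 12.00, 11.80 and 11.64, and Vdac3, an outer membrane channel, 11.17 to 11.26 and then 11.05, 10.95 and 10.64. All 3 were called lower at 6 and 12 h but not at 3 h. Of 14 genes of the citric acid cycle and pyruvate dehydrogenase, 4 (28.6%) were higher at 12 h, a share close to that of all probe sets (28.9%), among them Pdhx (0.55), Idh3b (0.30) and Dld (0.26). Cs alone was lower (-0.28), which was 7.14% of this list beside 31.7% of all probe sets. The calls of Idh3b and Dld were lost without the vehicle array of 12 h. Of 5 kinases and phosphatases of pyruvate dehydrogenase, Pdp2 was higher (0.55) and Pdk2 (-1.10) and Pdk3 (-0.43) were lower. That was 20% higher and 40% lower, beside 28.9% and 31.7% of all probe sets.

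Among 12 regulators of mitochondrial gene expression, 7 (58.3%, beside 28.9% of all probe sets) were higher and 1 (8.33%, beside 31.7%), Gabpa (-0.47, adjusted p = 0.0054), was lower at 12 h. Twnk, the mitochondrial DNA helicase, read 7.95 to 8.22 in the vehicle arrays and 8.13, 8.29 and 9.05 under NaF. Polg2, of the mitochondrial DNA polymerase, read 7.92 to 8.15 and then 8.46, 8.87 and 9.05, and Pprc1, a coactivator related to PGC-1, 8.84 to 8.94 and then 8.57, 8.76 and 9.72. At 12 h all 3 stood above the vehicle arrays, Polg2 also at 3 and 6 h, whereas Pprc1 lay below them at 3 h (-0.32, adjusted p = 0.0367) and 6 h. The list linked to hypoxia gave 2 higher and 2 lower genes of 4 (50% each, beside 28.9% and 31.7% of all probe sets). In it, Lonp1, a matrix protease, read 9.86 to 9.92 and then 10.06, 10.44 and 11.25. Bnip3 was 0.60 higher and Egln3 was at -0.81.

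Some array-wide values moved beside these results. Array medians agreed within 5.32 to 5.35. The median difference of all probe sets past the filter was near 0, and the Gapdh 3′ control probe set differed from vehicle of 12 h by 0.01. The beta-actin control probe sets had lower values than vehicle of 12 h (-0.45 at the 3′ end and -1.05 at the 5′ end), and that of 5S rRNA a higher one (0.59). The beta-actin 3′ minus 5′ control difference, a sign of RNA integrity, was 1.53 to 2.83 in the vehicle arrays, highest at 3 h, and 2.39, 1.77 and 2.15 under NaF. Its part in the results was not tested. Epithelial markers defined the cells, with Krt5, Krt14 and Krt17 at 13.13 to 14.14 in every array, while Krt19 was at 2.83 to 3.15. At 12 h, 10 of 12 epithelial markers tested (83.3%, beside 31.7% of all probe sets) were lower and none was higher (28.9%). The median level of all 13 epithelial markers on the array, Krt19 included, was 12.30 to 12.35 in the vehicle arrays and 11.96 to 12.52 under NaF. The part of these markers in the decrease of the subunit genes was not tested. Leukocyte, striated muscle, endothelial and fibroblast markers had median signals of 3.10 to 4.08, and of these lists only Cd14 (9.99 to 10.11 in the vehicle arrays, 8.78 to 9.36 under NaF) and Myh1 (9.48 to 9.86 and 10.17 to 10.44) passed the filter. Fewer transcripts per cell and fewer cells of a type in the culture cannot be told apart in these pooled RNAs.

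Atp5mc1, Atp5mc2, Cox7a2, Uqcrb, Ndufs5 and Ndufa10 were not analysed here, because their probe sets carried more than 1 symbol. Probe sets can also share sequence with pseudogenes, of which small subunit genes have many. Exactly equal values in at least 2 arrays were present for 21 of the 70 genes (30%, beside 23.3% of all probe sets), among them the 2 complex II genes that equalled their 12 h vehicle array.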

How the data were processed

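RNA pooled from 3 independent experiments a condition was hybridized by the authors to 7 Affymetrix Rat Genome arrays, and they deposited 1 log2 signal per probe set and array, processed in GeneSpring GX. For summarization, normalization and genome build the sources used here give nothing. Groups followed the labels. The deposited log2 values were used unchanged. Probe sets with a mean under 7 and 57 array controls were left out. Differences were tested with limma 3.58.1 under R 4.3.3 (eBayes after lmFit, two-sided, Benjamini-Hochberg over 10707 probe sets), with the 4 vehicle arrays as 1 group and each NaF array its own (residual df 3, prior df 2.79). A second fit set 3 NaF against 4 vehicle arrays. The median standard error at 12 h was 0.08. The fit was also run on simulated arrays, those of NaF included, drawn with the spread of the vehicle arrays. Such data cannot show how real NaF arrays vary. NaF minus vehicle of the same time is a description.

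The genes named were the 4 of largest difference at 12 h in each complex, all genes past limma and 1.5-fold, the Sdh genes, isoform sets, the 3 largest of each functional list and Gapdh; other genes were named, and complexes I and V divided into parts, after their values were seen. Symbols came from GEO's platform annotation: 20832 probe sets had 1 symbol, 436 several and 9831 none, and promoters were matched by gene ID. Members and lists were chosen with earlier results of these data known. Alternatives were the filter, array scaling, variance trend, probe set averaging, baseline and leaving out arrays. The number of arrays limits the precision.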

Additional observations from a re-analysis of the deposited data

Results flagged for a closer look

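For 10 of the 70 genes, 1 vehicle array lay apart from the other 3 by more than Dixon's limit. Chance would place about 1 gene in 20 there if values were normal and untied, but equal values were frequent in these arrays. The share of all probe sets past this limit was not counted. The control array was apart for Ndufa1 (11.93, others 11.97), Uqcrc2 (11.04, others 10.91 to 10.93), Uqcrh (11.25, others 11.47 to 11.50), Atp5mf (12.54, others 12.57 to 12.58) and Atp5pd (12.70, others 12.64). The 6 h vehicle array was apart for Ndufs4 (10.25, others 10.29), Cox7c (11.51, others 11.53) and Atp5me (9.93, others 9.87). That of 12 h was apart for Cox6b1 (12.44, others 12.40) and that of 3 h for Atp5pf (11.30, others 11.39 to 11.40). In most of them the other arrays were equal or nearly so, and the distance was under 0.1; Uqcrh and Uqcrc2 had the widest.

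Signals differed between single NaF arrays in the direct limma comparisons, in which the vehicle array of each time was not subtracted. Between 3 and 12 h, 22 genes were lower at 12 h and 1 was higher, beside 24.5% and 24.6% of all probe sets. Between 6 and 12 h, 26 were lower and 0 were higher, beside 20% and 21.5%. The higher count was 0 also at an unadjusted p under 0.05.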

How the results depend on the processing

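The count of 29 genes lower at 12 h was 23 to 36 under the other settings tested with limma and 24 to 30 when a vehicle array was left out; 7 were past 1.5-fold against vehicle of the same time. With no filter on dim probe sets, the counts were 3 higher at 12 h (4 to 7 leaving out an array, 4 without that of 6 h), 1 higher and 2 lower at 6 h, 0 lower at 3 h, 1 lower in 3 NaF against 4 vehicle arrays, 11 lower and 0 higher from 3 to 12 h, and 12 lower from 6 to 12 h. With a variance trend they were 23 higher at 6 h, 3 lower at 3 h, 1 higher in 3 against 4 arrays and 6 higher from 3 to 12 h, which was 2 after quantile normalization and 3 with probe sets averaged per gene. Past 1.5-fold, 0 were higher at 6 or 12 h and 0 lower at 3 or 6 h. Leaving out an array gave 4 to 13 higher at 6 h (4 with the 6 h vehicle array removed, 5 with that of 12 h removed) and 2 to 8 lower (2 without that of 12 h), 0 to 1 lower at 3 h, 0 to 7 lower and 0 to 3 higher in 3 against 4 arrays (7 and 3 without NaF 3 h, 4 and 1 without NaF 12 h), 15 to 25 lower and 0 to 2 higher from 3 to 12 h, and 17 to 27 lower from 6 to 12 h (17 without that of 6 h). With time as a block (3 pairs of arrays, without the control array), 0 genes were lower in place of 2. Some of these settings had fewer arrays or more probe sets, and the cause of the changes was not tested.

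Medians against the control array were 0.0975 at 6 h and -0.1135 at 12 h over all members, 0.0046, 0.1212 and -0.0959 at 3, 6 and 12 h in complex I, -0.0181 at 3 h in complex II and -0.0744, -0.0074 and -0.3678 in complex V. Against the mean of the vehicle arrays they were 0.1101 at 6 h in complex I, -0.0246 at 3 h in complex II and -0.0615 at 3 h in complex V. Quantile normalization gave -0.0181 at 3 h and -0.1754 at 12 h in complex I, and equal array medians -0.2669 at 12 h in complex V. Without a filter the 12 h median was -0.1123 over all members and -0.1213 in complex I. The 12 h differences of Sdha, COX2 and Uqcrc2 changed sign. Sdha was -0.03 after quantile normalization and -0.0057 to 0.0261 when a vehicle array was left out, negative without that of 3 h. COX2 was -0.0007 after quantile normalization and -0.0251 to 0.0582 when one was left out, negative (-0.0251 and -0.004) without that of 12 or 6 h. Uqcrc2 was 0.1032 as the mean of both probe sets. Detection calls were not used here, so whether a dim probe set was above background is not known.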
